A study of Mus musculus with 12 samples.

Results

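The genes described here mark the cells of blood vessels. Pecam1, Cdh5, Kdr, Flt1, Tek, Tie1 and Cldn5 mark endothelial cells, which line a vessel, and Pdgfrb, Rgs5 and Cspg4 mark pericytes, which wrap it. They are 10 of the 38720 genes in each deposited table, were chosen by name, and were found in both tables. RNA was measured in newborn (P0) mouse retina, strain given as C57/BL6, from wild-type (WT) mice and from mKO mice, which carry Math5-Cre together with Ezh2 flox/flox. In the latter, loxP sites flank the exons of Ezh2 that encode the SET domain, the catalytic part of this histone methyltransferase, and Cre is driven from the Math5 locus and reaches only part of the retinal ganglion cells (RGCs). Retinas were dissociated with papain, RGCs were bound by magnetic beads against Thy-1 (CD90), and the cells left behind are called non-RGCs. Each genotype and fraction had 3 libraries from separate RNA extractions, 12 in all, and how many pups went into a library is not given in the sources used here. The p-values below therefore measure the spread between these libraries.

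Endothelial cells grow along gradients of VEGF, which they sense through the receptor tyrosine kinases encoded by Kdr and Flt1. They recruit pericytes by releasing PDGF-B, the ligand of the receptor encoded by Pdgfrb. The angiopoietin receptor Tek and its relative Tie1 govern the stability of the new vessel, and Cdh5 and Cldn5 seal the junctions between its cells. At birth the mouse retina is only beginning to receive its own vessels, which enter at the optic nerve head, while the hyaloid vessels still lie on its inner face. Kdr is known outside vessels too, in retinal progenitors and neurons.

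The deposited tables give 1 mean per genotype, and the reads of every library were recovered from the digits of these means. Within a group the libraries are lettered A to C from the deepest to the shallowest, since the recovered values carry no replicate number. Each library held 7139633 to 13014004 reads on genes. Values below are normalised reads, which are reads divided by the library's size factor, and were compared within a table only. Changes are log2(normalised reads + 1) in mKO minus WT, tested with limma over all genes whose mean reached 10 in 1 genotype or both, and called at a Benjamini-Hochberg adjusted p under 0.05. The reads of Ezh2 did not separate the genotypes, with 1354 to 1476 in mKO RGCs, 1190 to 1678 in WT RGCs, and changes of 0.09 (limma adjusted p = 0.637) in RGCs and 0.13 (limma adjusted p = 0.584) in non-RGCs. These reads are summed over the whole gene, most of whose exons lie outside the deleted part, so they are no check of the deletion, and mKO below stands for the label. In RGCs 6027 of 16085 genes were called, and in non-RGCs 1626 of 15326. With each library's trend with GC content removed the counts were 2595 and 264. With reads scaled to each library's total (CPM) in place of the size factors, the median of all genes moved from -0.0024 to 0.12 in RGCs and from -0.026 to 0.15 in non-RGCs, and the share of calls that were lower in mKO moved from 56.5% to 36.7% and from 60.6% to 25.0%.

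The sequence before the start of 7 of the 10 genes was given in RefSeq (build GRCm38.p6). It was searched on both strands for CCGGAA and CAGGAA, 6-letter words of the kind bound by ETS factors, the family that includes the endothelial regulators Erg and Fli1. The words share the core GGAA, no match overlapped another, and they were chosen with the values already known. Of all 32851 such windows of 250 bases, 12.03% held the first word, 25.7% the second and 35.1% either. A word was found in 5 of the 7 member windows, those of Kdr, Tek, Tie1, Rgs5 and Cspg4, and in neither Cldn5 nor Flt1. The Flt1 window, which is not shown, held the core GGAA without either word. Shown here are the windows of Tek and Rgs5, an endothelial and a pericyte gene that were high in the same RGC libraries of each genotype, and of Kdr and Cldn5, whose deviations did not go with those of the other genes over the 12 libraries. Each is read from 5′ to 3′ on the strand of the gene, ends at the base before the RefSeq start, and has the words in capitals, TTCCTG and TTCCGG being the same words on the other strand. Tek lies at chr4:94739039-94739288 on the plus strand, Rgs5 at chr1:169655251-169655500 on the plus strand, Kdr at chr5:75978456-75978705 on the minus strand and Cldn5 at chr16:18776597-18776846 on the plus strand.
Tek: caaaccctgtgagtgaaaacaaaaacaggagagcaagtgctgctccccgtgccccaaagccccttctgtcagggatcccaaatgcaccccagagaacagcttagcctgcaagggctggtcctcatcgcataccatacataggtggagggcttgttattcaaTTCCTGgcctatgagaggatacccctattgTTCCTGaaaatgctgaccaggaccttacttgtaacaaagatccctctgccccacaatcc
Rgs5: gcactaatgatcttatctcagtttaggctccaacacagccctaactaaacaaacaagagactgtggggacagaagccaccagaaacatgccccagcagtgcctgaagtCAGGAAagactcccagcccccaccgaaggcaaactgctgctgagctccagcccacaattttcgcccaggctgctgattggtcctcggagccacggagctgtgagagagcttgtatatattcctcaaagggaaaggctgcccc
Kdr: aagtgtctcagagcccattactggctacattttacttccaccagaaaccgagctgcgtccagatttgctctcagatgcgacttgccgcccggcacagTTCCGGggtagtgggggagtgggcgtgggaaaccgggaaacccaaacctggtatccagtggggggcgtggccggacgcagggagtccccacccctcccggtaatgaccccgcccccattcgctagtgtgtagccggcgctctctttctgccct
Cldn5: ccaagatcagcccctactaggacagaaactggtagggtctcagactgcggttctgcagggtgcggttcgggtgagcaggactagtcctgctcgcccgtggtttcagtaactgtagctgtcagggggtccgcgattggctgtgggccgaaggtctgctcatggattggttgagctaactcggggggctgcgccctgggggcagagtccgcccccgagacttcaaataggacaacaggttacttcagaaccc
The window of Tek held the second word at 2 places and that of Rgs5 at 1, while the window of Kdr held the first word at 1 place. Such a match describes the letters alone.

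Levels of different genes were compared as CPM per kb of exon (the union of annotated exons, GENCODE M21). Kdr was the first of the 10 genes in all 4 groups. It stood at 33.3 in WT RGCs (range 28.8 to 41.0) and 59.9 in WT non-RGCs (range 59.2 to 60.4), above the next gene in every library. Cldn5 was second in all 4 groups, with 14.5 (7.85 to 25.5) in WT RGCs and 28.3 (26.5 to 31.3) in WT non-RGCs. In non-RGCs it also lay above the third gene, Pdgfrb, in every library of both genotypes. In RGCs the ranges of Cldn5 and of the third gene, Rgs5, ran together in part of the libraries. In WT RGCs Cdh5, Tek, Pecam1, Cspg4 and Tie1 followed within 1.71 to 0.931, and neighbours in that order were not separated in every library. Flt1 was last there at 0.322. In mKO non-RGCs the last place was held by Tie1, at 0.0343 (range 0 to 0.0634).

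**Figure D1:**
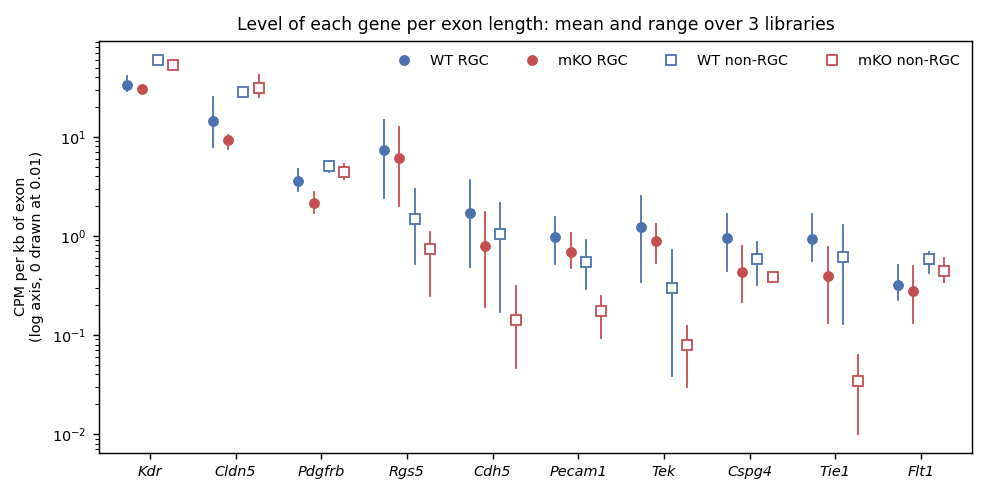
Level of each of the 10 genes in CPM per kb of exon (log axis), as the mean (point) and the range (line) of 3 libraries per group, with circles for RGCs, squares for non-RGCs, blue for WT and red for mKO. The means of Kdr and Cldn5 are the highest in all 4 groups, the range of Cldn5 meeting that of Rgs5 in RGCs, and Tie1 in mKO non-RGCs is the lowest point, at 0.0343.

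The VEGF receptors did not pass the test in either fraction. Kdr (chr5:75932827-75978458, minus strand, GRCm38), which encodes the main signalling receptor of VEGF-A, had 3251, 3434 and 4579 normalised reads in libraries A, B and C of WT RGCs and 3254, 3142 and 3056 in mKO RGCs. The groups overlapped, through library A of mKO and A of WT. In non-RGCs Kdr had 5941, 6033 and 6191 in WT and 4509, 4681 and 5153 in mKO, so that no mKO library reached the lowest WT library. The change was -0.34 (95% interval -0.56 to -0.13, limma adjusted p = 0.0513) in non-RGCs and -0.24 (-0.53 to 0.06, limma adjusted p = 0.177) in RGCs. It was called in non-RGCs without mKO library C (-0.40, limma adjusted p = 0.0370), and in RGCs it turned to 0.0021 once each library's trends with GC content and then with read density along exons (reads per base) had been removed. Flt1 (chr5:147561604-147726011, minus strand), a high-affinity VEGF receptor that can act as a decoy, had 38.5, 87.9 and 37.3 in WT RGCs and 76.8, 31.3 and 20.7 in mKO RGCs. In non-RGCs it had 63.2, 103 and 101 in WT and 80.1, 46.0 and 52.2 in mKO. The groups overlapped in both fractions, and the changes were -0.43 (-1.70 to 0.83, limma adjusted p = 0.554) in RGCs and -0.58 (-1.26 to 0.10, limma adjusted p = 0.230) in non-RGCs.

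Of the angiopoietin receptor pair, Tie1 fell in mKO non-RGCs. Tie1 (chr4:118471191-118490061, minus strand), an orphan receptor that acts with Tek, had 22.6, 70.6 and 7.30 normalised reads in libraries A, B and C of WT non-RGCs and 3.08, 1.92 and 0 in mKO non-RGCs. These are 4, 2 and 0 reads in mKO, and a count of 0 in library C allows up to 0.420 CPM. All mKO libraries lay below the WT libraries, and the change was -3.40 (95% interval -5.22 to -1.58, limma adjusted p = 0.0308). The call was lost without mKO library B (limma adjusted p = 0.0939), mKO C (0.0717), WT A (0.0627) or WT B (0.0939), and with the GC trend removed (0.0826), while the change stayed at -2.61 or lower. In RGCs Tie1 had 34.5, 103 and 35.01 in WT and 43.6, 14.8 and 7.53 in mKO, with overlap through mKO library A. The change there was -1.49 (-3.09 to 0.11, limma adjusted p = 0.126), and it was called without mKO library A (-2.14, limma adjusted p = 0.0453). Tek (chr4:94739289-94874976, plus strand), the receptor of the angiopoietins, had 51.7, 150 and 19.8 in WT RGCs against 69.8, 28.6 and 44.2 in mKO RGCs. In non-RGCs it had 7.22, 37.7 and 2.09 in WT against 3.85, 5.75 and 1.41 in mKO. The groups overlapped in both fractions, with changes of -0.27 (-1.91 to 1.38, limma adjusted p = 0.785) in RGCs and -1.21 (-3.12 to 0.70, limma adjusted p = 0.367) in non-RGCs. The direction in RGCs rested on single libraries, since it was 0.46 without WT library B and 0.04 without mKO library B.

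The junction genes had wide spreads and none was called. Pecam1 (chr11:106654217-106750628, minus strand), an adhesion molecule of endothelial cells that blood cells also carry, had 66.9, 122 and 39.7 normalised reads in WT RGCs and 75.0, 34.1 and 39.5 in mKO RGCs. In non-RGCs it had 31.6, 61.9 and 20.9 in WT and 11.6, 5.75 and 15.5 in mKO, all below WT. Its change in non-RGCs was -1.67 (-2.76 to -0.57, limma adjusted p = 0.0572), and it was called without WT library C (-2.02, limma adjusted p = 0.0401). In RGCs the change was -0.55 (-1.63 to 0.53, limma adjusted p = 0.382) and the groups overlapped. Cdh5 (chr8:104101625-104144511, plus strand) encodes VE-cadherin, the adhesion protein of endothelial junctions. It had 25.3, 196 and 49.0 in WT RGCs and 83.8, 21.2 and 9.41 in mKO RGCs, a 7.75-fold range within WT alone. In non-RGCs it had 37.9, 99.7 and 8.34 in WT and 13.1, 1.92 and 2.82 in mKO, and the groups overlapped through mKO library A and WT library C. The changes were -1.24 (-3.47 to 0.98, limma adjusted p = 0.334) in RGCs and -2.62 (-4.54 to -0.70, limma adjusted p = 0.0771) in non-RGCs, the latter being called without mKO library A (-3.31, limma adjusted p = 0.0475) or WT library C (-3.53, limma adjusted p = 0.0286).

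Cldn5 (chr16:18776847-18778262, plus strand), the main claudin of the blood-retinal barrier, differed from the other junction genes in its pattern. It had 139, 182 and 447 normalised reads in WT RGCs and 161, 169 and 125 in mKO RGCs, so that the high value was WT library C and the groups overlapped. In non-RGCs it had 412, 422 and 513 in WT and 355, 361 and 602 in mKO, with both the lowest and the highest library in mKO. The change was -0.57 (-1.53 to 0.38, limma adjusted p = 0.302) in RGCs, where it was -0.08 without WT library C. In non-RGCs it was -0.07 (-0.56 to 0.42, limma adjusted p = 0.856) and turned to 0.10 under CPM scaling and to 0.37 with the GC trend removed. Cldn5 had the highest GC content of the 10 genes, 60.5% over its longest transcript.

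Among the pericyte genes, Pdgfrb fell in mKO RGCs. Pdgfrb (chr18:61045150-61085061, plus strand), the receptor through which pericytes answer endothelial PDGF-B, had 194, 330 and 207 normalised reads in WT RGCs and 175, 107 and 121 in mKO RGCs. The mKO libraries all lay below those of WT, and the change was -0.84 (95% interval -1.46 to -0.23, limma adjusted p = 0.0405). In these bulk samples, fewer cells that express a gene and less of its transcript per cell cannot be told apart, for Pdgfrb or any other gene here. Which cells the reads came from was not tested. The call was lost under CPM scaling (-0.72, limma adjusted p = 0.0634), with the GC trend removed (-0.55, limma adjusted p = 0.211), and without mKO library B (0.132), mKO C (0.123) or WT B (0.0901). In non-RGCs Pdgfrb had 334, 269 and 341 in WT and 287, 233 and 208 in mKO. These overlapped, with a change of -0.38 (-0.80 to 0.04, limma adjusted p = 0.208).

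Rgs5 and Cspg4 were not called in either fraction. Rgs5 (chr1:169655501-169695813, plus strand), a regulator of G-protein signalling and a pericyte marker, had 295, 850 and 134 normalised reads in WT RGCs and 650, 105 and 194 in mKO RGCs. Its change there was -0.45 (-2.38 to 1.49, limma adjusted p = 0.695), and it was 0.25 without WT library B and 0.14 without mKO library B. In non-RGCs it had 47.8, 151 and 27.1 in WT and 49.3, 39.3 and 11.3 in mKO, a change of -1.02 (-2.51 to 0.46, limma adjusted p = 0.328). Cspg4 (chr9:56865033-56899870, plus strand) encodes NG2, a proteoglycan of pericytes and also of oligodendrocyte precursors. It had 111, 249 and 65.4 in WT RGCs and 108, 29.5 and 37.6 in mKO RGCs, a change of -1.29 (-2.73 to 0.16, limma adjusted p = 0.140) that was called without WT library C (-1.73, limma adjusted p = 0.0328). In non-RGCs it had 74.9, 115 and 43.8 in WT and 49.3, 41.2 and 46.6 in mKO, a change of -0.65 (-1.43 to 0.12, limma adjusted p = 0.236) that was called without WT library C (-1.01, limma adjusted p = 0.0467). Both genes overlapped between the genotypes in both fractions.

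**Figure D2:**
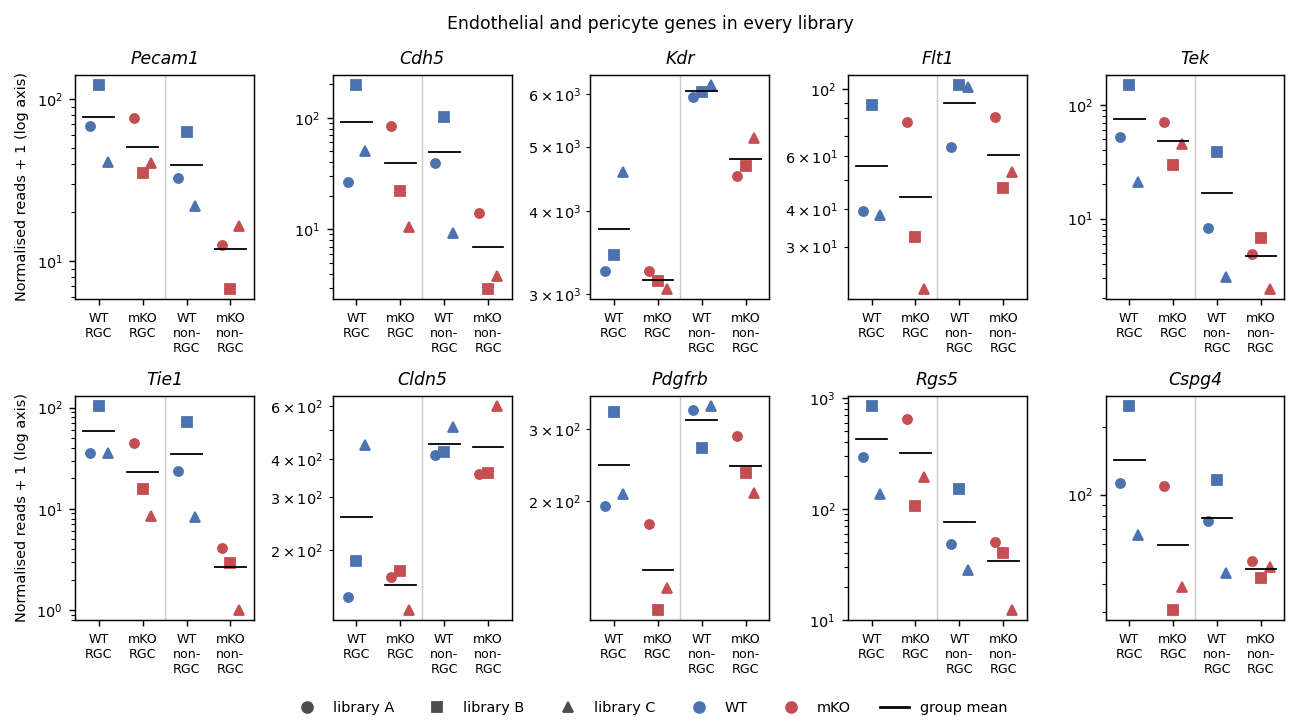
Normalised reads + 1 (log axis, a scale of its own in each panel) of the 10 genes in each of the 12 libraries, with blue for WT, red for mKO, a marker shape for each lettered library and a line at the group mean. Genotypes do not overlap for Pdgfrb in RGCs and for Pecam1, Kdr and Tie1 in non-RGCs, and library B of WT RGCs (square) is the highest of its group for 8 genes.

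Counted together, 1 of the 10 genes was called lower in mKO RGCs, where 21.2% of all genes tested were, and 1 was called lower in mKO non-RGCs, against 6.43% of all genes. No member was called higher, against 16.3% and 4.18% of all genes. The genotypes did not overlap for 1 gene in RGCs and 3 in non-RGCs, all with mKO below WT, a pattern seen in 28.2% and 19.2% of all genes. The fitted change lay below 0 for all 10 genes in both fractions, against 50.2% of all genes in RGCs, 52.4% in non-RGCs and 39.9% in both. The exceptions under other settings were Kdr in RGCs with both trends removed, Tek and Rgs5 in RGCs without single libraries, Tek in RGCs without mKO library A and WT library B together, and Cldn5 in non-RGCs under CPM scaling, with either set of trends removed, and without mKO library A or B or WT library C. The median change of the 10 was -0.56 in RGCs and -0.84 in non-RGCs, beside -0.0024 and -0.026 over all genes. Since the genes vary together between libraries, as shown next, their shared sign is not 10 separate observations. With the GC trend removed limma called no member in either fraction, with medians of -0.51 and -0.86, and an unadjusted p under 0.05 was reached by 0 members in RGCs and 4 in non-RGCs. In the fits as first given, an unadjusted p under 0.05 was reached by 1 member in RGCs and 4 in non-RGCs (Pecam1, Cdh5, Kdr and Tie1).

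**Figure D3:**
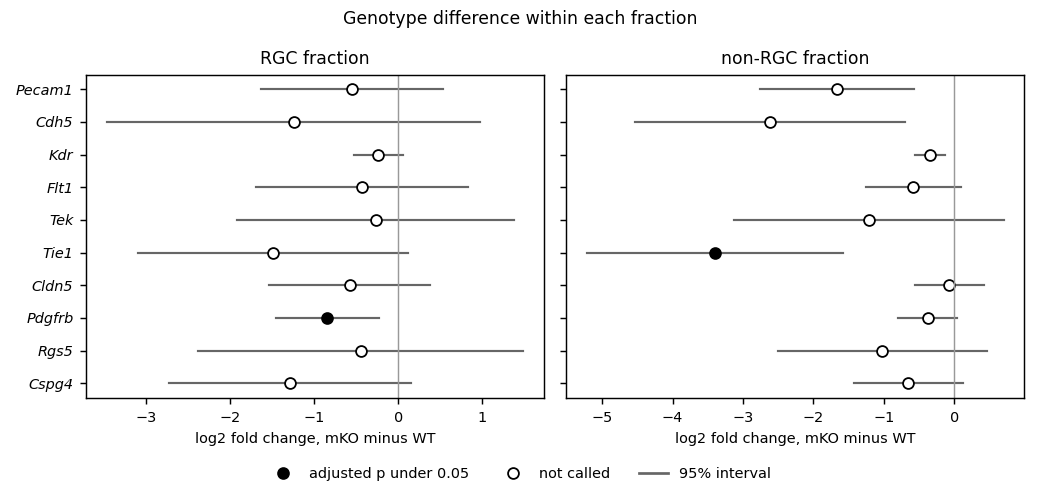
Change of each gene on the log2(normalised reads + 1) scale, mKO minus WT, with its 95% interval from limma, in RGCs (left) and non-RGCs (right, on its own horizontal scale). Filled points passed an adjusted p of 0.05, which are Pdgfrb in RGCs at -0.84 and Tie1 in non-RGCs at -3.40, and all other points are open.

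Whether the genotype difference itself differed between the fractions was asked with limma over all 12 libraries. No member passed, nor did any have an unadjusted p under 0.05, and 16 of 16517 genes (0.0969%) did. The difference of differences, RGCs minus non-RGCs, was 1.91 for Tie1 (95% interval -0.57 to 4.39, limma adjusted p = 0.595) and -0.46 for Pdgfrb (-1.18 to 0.25, limma adjusted p = 0.635). The call of Tie1 in one fraction and of Pdgfrb in the other is thus not shown to differ between them. For Kdr the interval was narrower, at 0.11 (-0.23 to 0.44, limma adjusted p = 0.813), and for Cdh5 it ran from -1.64 to 4.39.

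Libraries of the same group differed widely for most of these genes. The residual SD of the fit, in log2 units, had a median of 0.898 over the 10 genes in RGCs and 0.154 over all genes tested, and 7 of the 10 lay above the 95th percentile of all genes (0.659). In non-RGCs the medians were 0.607 and 0.237, and 4 of the 10 lay above that percentile (0.737). Kdr had the smallest residual SD in both, 0.190 in RGCs and 0.0734 in non-RGCs. In RGCs Cldn5 (0.643) and Pdgfrb (0.392) also lay below that percentile, and in non-RGCs Pdgfrb (0.214) lay below the median of all genes. The high values came from the same libraries. Library B was the highest of WT RGCs for 8 genes, all but Kdr and Cldn5, and library A was the highest of mKO RGCs for 9, all but Cldn5. In non-RGCs, library B was the highest of WT for 7 genes and library A of mKO for 6. Over the deviations of the 12 libraries from their group means, each gene was set against the mean of the other 9. Pearson's r was 0.95 for Cdh5, 0.91 for Tie1, 0.88 for Cspg4, 0.80 for Pecam1 and Rgs5, 0.79 for Flt1, 0.72 for Tek and 0.58 for Pdgfrb. It was -0.13 for Kdr and -0.18 for Cldn5. These values describe 12 libraries that share their sorting, depth and base composition with every gene.

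**Figure D4:**
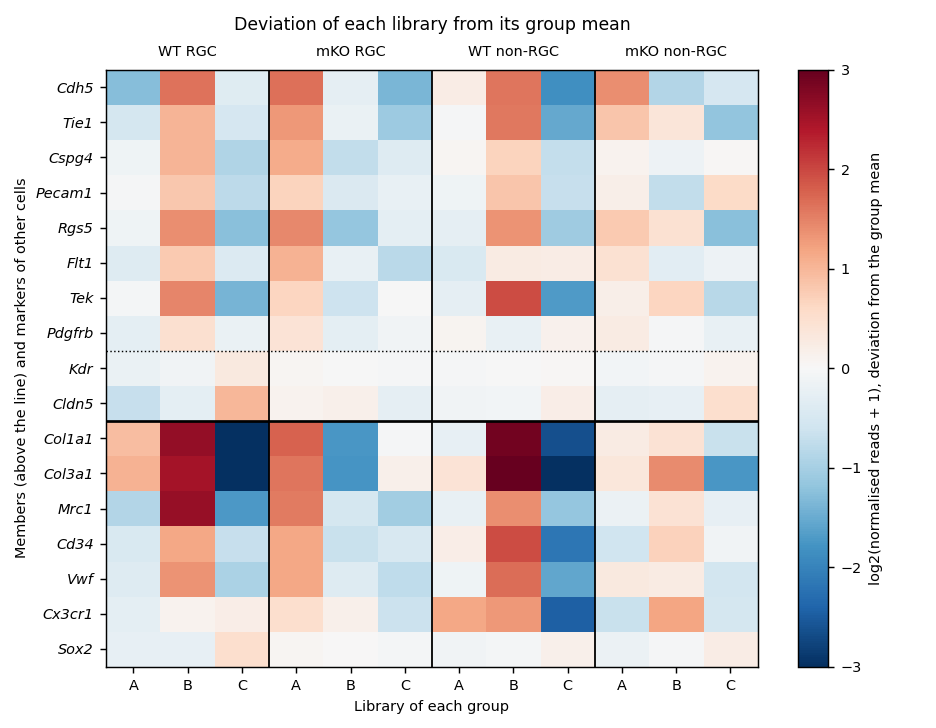
Deviation of each library from its group mean in log2(normalised reads + 1), with the 10 genes above the solid line and markers of other cells below it, and the 3 libraries of each of the 4 groups side by side (red above, blue below the mean, colours end at 3 and -3). The first 8 genes are red in WT RGC library B and mKO RGC library A together with Col1a1, Col3a1 and Mrc1, while Kdr and Cldn5 are highest in WT RGC library C together with Sox2.

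Some markers of other cells moved between libraries with most of these genes. The 8 mesenchyme markers (collagens and other genes of connective tissue) summed to 5391, 16916 and 253 normalised reads in libraries A, B and C of WT RGCs and to 7584, 699 and 2367 in mKO RGCs. In WT non-RGCs they summed to 774, 7103 and 138, highest in library B, as were 7 of the 10 vessel genes. A shared letter does not link libraries of different groups. In mKO non-RGCs they summed to 512, 688 and 237, highest in library B, whereas 6 of the 10 vessel genes were highest in A. Col1a1, a fibrillar collagen, had 1701, 5584 and 74.7 in WT RGCs and 1993, 172 and 570 in mKO RGCs. Mrc1, a receptor of macrophages that lie along vessels, had 59.8, 682 and 32.7 in WT RGCs and 537, 125 and 87.5 in mKO RGCs, and Cx3cr1, a microglial receptor, had 437, 575 and 617 in WT RGCs and 633, 500 and 286 in mKO RGCs. The 10 progenitor markers summed to 14205, 15097 and 23302 in WT RGCs, highest in library C as were Kdr and Cldn5, and to 13605, 14642 and 13605 in mKO RGCs, where Cldn5 was also highest in library B but Kdr was highest in A. The 10 microglia and macrophage markers summed to 2834, 4615 and 4202 in WT RGCs and to 3967, 2718 and 1757 in mKO RGCs. In non-RGCs their sums ran from 19.8 to 307. The RGC sums were highest in the same libraries as most vessel genes, B of WT and A of mKO. In WT RGCs, however, only Mrc1 and Csf1r of these markers were highest in library B, and the others were highest in C. The part of these cells in the results was not tested. None of the 7 mesenchyme markers tested in RGCs or the 8 tested in non-RGCs was called by limma, and an unadjusted p under 0.05 was reached by 0 and 1 of them. Without mKO library A and WT library B, an alternative chosen after seeing the data, 9 of the 10 genes stayed below 0 in RGCs with a median of -0.66, Tek was at 0.14, and limma called none (Pdgfrb -0.81, limma adjusted p = 0.0525), with 3 at an unadjusted p under 0.05. In non-RGCs without WT library B all 10 stayed below 0, the median was -0.40, and limma called none, with 4 at an unadjusted p under 0.05.

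Markers that differed by genotype stood beside these changes too. Of 6 blood cell markers tested, 5 were higher in mKO in each fraction, against 16.3% of all genes in RGCs and 4.18% in non-RGCs. Alas2, the first enzyme of haem synthesis in red cells, rose by 1.51 in RGCs and 3.12 in non-RGCs (limma adjusted p = 0.0141 and 0.00603), opposite in sign to the 10 vessel genes. Of 12 markers of RGCs, 10 fell in the bead-bound mKO cells and 8 rose in mKO non-RGCs, against 21.2% and 4.18% of all genes, and with both trends removed 2 and 5 were called. Their sums were 32395 to 35033 in WT RGCs, 23384 to 24514 in mKO RGCs, 5635 to 5968 in WT non-RGCs and 6008 to 8209 in mKO non-RGCs. Thy1, the gene of the protein the beads bind, changed by -0.73 in RGCs and 3.86 in non-RGCs (limma adjusted p = 0.000651 and 0.0048). With both trends removed it was at -0.23 in RGCs, where it was not called (limma adjusted p = 0.0779), and at 4.04 in non-RGCs (limma adjusted p = 0.0111). Of the 10 progenitor markers 4 were lower in mKO RGCs, against 21.2% of all genes, and 1 with both trends removed, and the median of the list was -0.46. None was called by limma in non-RGCs, although 5 were lower at an unadjusted p under 0.05 and their sums were lower in mKO (19692 to 24612) than in WT (25984 to 32262). Of the astrocyte markers 2 of 7 were lower in mKO RGCs and 1 of 7 in non-RGCs (0 and 1 with both trends removed). Of the photoreceptor markers 4 of 8 were lower in each (2 and 0 with both trends removed). Among all genes 21.2% were called lower in RGCs and 6.43% in non-RGCs, and the astrocyte share in RGCs was near the former. No microglia or oligodendrocyte precursor marker was called by limma, and of these 4 and 1 in RGCs and 0 and 2 in non-RGCs were lower at an unadjusted p under 0.05. The part of these differences in the vessel genes was not tested.

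Between the fractions the means of the 10 genes differed in direction. In CPM, Rgs5 was at 33.9 in WT RGCs and 6.78 in WT non-RGCs, and at 27.7 and 3.36 in mKO. Tek was at 5.86 and 1.42 in WT and at 4.15 and 0.371 in mKO. Pecam1, Cdh5, Tie1 and Cspg4 also had higher means in the bead-bound fraction in both genotypes. Kdr went the other way, with 300.5 in WT RGCs and 541 in WT non-RGCs, as did Cldn5 with 20.5 and 40.0, Pdgfrb with 19.4 and 28.1, and Flt1 with 4.35 and 7.92. The libraries of the fractions overlapped for all but Kdr and Cldn5 in WT, and only for Cdh5, Flt1 and Cspg4 in mKO. The share of all genes whose fractions overlap was not worked out, so this describes the values alone. The fractions were normalised in separate tables, so these levels are set side by side as shares of each library and were not tested.

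The genes whose pattern was most like that of the 10 were found by the correlation of their log2(CPM + 1) with the mean of the standardised members, over 16517 genes. On deviations from group means the 10 most alike included Gja1, Serpinb8, Cd93, Sox17, Emcn, Tgfbi, Vcam1 and Ly6a, with r from 0.97 to 0.95. Cd93, Emcn and Ly6a are surface proteins of endothelial cells and Sox17 is a factor of arterial endothelium. This measure leaves genotype differences out. In both fractions the CPM means of Gja1, Serpinb8 and Vcam1 were higher in mKO than in WT. Those of the others named were lower. The r of Serpinb8, Sox17, Emcn and Ly6a rests on few reads. Their means were 0.49, 0.98, 1.04 and 1.78 CPM in WT RGCs and 0.215, 0.026, 0.084 and 0.026 CPM in mKO non-RGCs. Over all libraries with the group differences left in, they included Eln, Vwf, Smoc2, Igfbp7, Myog, Mal, Nbl1, Sox17 and Aebp1, with r from 0.93 to 0.89. Eln encodes elastin and Vwf the von Willebrand factor of endothelial granules, while Myog is a factor of skeletal muscle. Myog and Mal rest on few reads too, with means of 0.83 and 2.14 CPM in WT RGCs and 0.105 and 0.065 CPM in mKO non-RGCs.

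Other genes of the same pathways were taken from lists, whose counts stand against 21.2% of all genes called lower and 16.3% called higher in RGCs, and 6.43% and 4.18% in non-RGCs. Among 18 ligands and co-receptors, mostly of the VEGF, angiopoietin and PDGF systems, 3 fell and none rose in mKO RGCs, a share near that of all genes. These were Tgfb1, the gene of TGF-beta 1 (-1.03, limma adjusted p = 0.0260), Vegfb (-0.84, limma adjusted p = 0.000644) and Pdgfb, the ligand of Pdgfrb (-0.72, limma adjusted p = 0.0402). In non-RGCs 2 fell and 2 rose. Pgf, a ligand of Flt1, rose from 58.4 to 129 normalised reads in WT libraries to 246 to 292 in mKO libraries (1.40, limma adjusted p = 0.0234), and every mKO library was above every WT library, which held for 17.5% of all genes in non-RGCs and 24.8% in RGCs. Vegfc, the ligand of lymphatic growth, rose by 0.95 (limma adjusted p = 0.0461). Nrp2, a VEGF co-receptor, fell by 1.13 (limma adjusted p = 0.0151) and Vegfb fell by 0.61 (limma adjusted p = 0.0396). With both trends removed, Pgf (1.55, limma adjusted p = 0.0371) and Nrp2 (-1.09, limma adjusted p = 0.0358) were still called, and none of the 3 in RGCs was. Vegfb was then at -0.14 in RGCs and -0.04 in non-RGCs, and Tgfb1 had a limma adjusted p of 0.0607 in RGCs.

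Of 29 further endothelial genes, 25 were tested in RGCs and 22 in non-RGCs. In RGCs 4 fell, no larger a share than among all genes, and none rose, with a median of -0.57, and among them were Nos3, the endothelial nitric oxide synthase (-1.46, limma adjusted p = 0.01004), Mcam (-0.78, limma adjusted p = 0.0448) and Egfl7 (-0.55, limma adjusted p = 0.0445). In non-RGCs 2 fell and none rose, with a median of -0.61. They were Mcam (-0.63, limma adjusted p = 0.0135) and the Notch ligand Dll4 (-0.59, limma adjusted p = 0.0248). Among the endothelial transcription factors, 2 rose and 2 fell of 15 in RGCs and 1 fell of 12 in non-RGCs. Klf2, a factor induced by blood flow, fell in both fractions, with changes of -1.503 in RGCs (limma adjusted p = 0.0158) and -1.68 in non-RGCs (limma adjusted p = 0.00556). With both trends removed Klf2 was still called in non-RGCs (-1.26, limma adjusted p = 0.0299), and none of the other genes in this paragraph was called in either fraction.

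Barrier junctions and transporters rose in 2 and fell in 2 of 13 genes in RGCs, where the glucose transporter Slc2a1 fell by 0.70 (limma adjusted p = 0.0206), and 1 of 12 fell in non-RGCs, the tight junction protein Tjp1 (-0.58, limma adjusted p = 0.0429). A list of 7 genes covered Norrin and Wnt signalling, through which retinal vessels are patterned. Of these 1 rose and 3 fell in RGCs, and 1 rose and 1 fell in non-RGCs. Ctnnb1 (-0.60, limma adjusted p = 0.000969) and Axin2 (-0.27, limma adjusted p = 0.0213), which fell in RGCs, act inside the cell and are not part of the receptor complex. The co-receptor Lrp5 fell in both fractions, by 0.73 (limma adjusted p = 0.00789) and 0.80 (limma adjusted p = 0.00922). The tetraspanin Tspan12 rose in both, by 0.38 (limma adjusted p = 0.0153) and 0.82 (limma adjusted p = 0.0249). Of the other pericyte and smooth muscle genes, 4 of 21 fell in RGCs, near the 21.2% of all genes, among them Ndufa4l2 (-0.96, limma adjusted p = 0.0185) and Notch3 (-0.69, limma adjusted p = 0.0149), and none rose. In non-RGCs 1 of 17 fell, Mcam again, and 1 rose, Rgs4 (0.94, limma adjusted p = 0.0213), a gene that neurons also express. Of the 12 basement membrane genes 2 fell in RGCs, again no larger a share than among all genes, Sparc (-0.78, limma adjusted p = 0.0416) and the laminin Lama5 (-0.44, limma adjusted p = 0.0248). In non-RGCs 3 fell, among them the fibronectin gene Fn1 (-0.89, limma adjusted p = 0.0148) and Lamc1 (-0.83, limma adjusted p = 0.0483). With both trends removed none of the genes in this paragraph was called.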

How the data were processed

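Poly-A RNA of 12 libraries was sequenced from a single end on 1 lane. Per the labels and the study's methods, the authors aligned reads to mm10 with STAR (version 2.3.1z4 in the processing notes) and counted them per gene with featureCounts. Deposited names add that only primary alignments were kept and duplicates removed. Whether strand was used is not given in the sources used here, so overlapping and antisense genes could not be separated. The deposited signal of a gene is the authors' average, over the 3 libraries of a group, of its count after division by the DESeq size factor. Their fold changes, p-values and overall mean were not used. Unused columns of per-sample values numbered 0.

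Because a mean of 3 scaled whole numbers is given to 15 digits, the reads of each library were recovered from it. Exactly 1 combination fitted each of the 24386, 22931, 25690 and 23544 genes with reads (mKO and WT non-RGCs, mKO and WT RGCs), to a relative deviation of at most 5e-15. With the steps of all 3 libraries shifted slightly, none of 740, 665, 798 and 702 genes could be fitted. Depth was 7139633 to 13014004 reads on genes, and limits from a count of 0 (3 reads) cover counting error only.

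limma 3.58.1 in R 4.3.3, with a mean-variance trend, was run on log2(value + 1) for each table and for all 12 libraries together. Only the fits of each table were tried on simulated data, with independent genes of a single dispersion. Log2 changes of 1 were recovered for 71 of 95 genes in RGCs and 78 of 95 in non-RGCs. Changes of 2 were recovered for 103 and 102 of 105, with 7 false calls in each fraction. The simulation did not copy the wide spread and shared variation of most members. Fold changes on the log2(value + 1) scale understate those of genes with few reads. No count model was run on the recovered reads. With 3 libraries against 3 an exact permutation test could not reach 0.05 and was not run. Positions, exon lengths and GC content came from GENCODE M21 on GRCm38, with 35580 of 38720 symbols matched. Python 3.11.15, numpy 2.4.6, pandas 2.3.3, numba 0.67.0 and statsmodels 0.14.6 were used. The trends removed in alternatives were those of each library with GC content (lowess, share 0.3) and with reads per base (300 neighbouring genes). Other alternatives were a pseudocount of 0.5, a minimum mean of 50 or none, CPM scaling, a p-value under 0.05 with a 1.5-fold change, and leaving out each library.

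The members, lists, tests and promoter words were chosen with earlier results of these data known. Every member is named, and of each other list up to 3 called genes per fraction and direction with the largest changes, plus the 10 most alike genes by each of 2 measures. Some genes that this rule names are not reported here. Col1a1, Mrc1, Cx3cr1 and Sox2 were picked for mention with their values known.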

Additional observations from a re-analysis of the deposited data

Results flagged for a closer look

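The change of Rgs4, a regulator of G-protein signalling listed with the pericyte genes and also expressed by neurons, differed between the fractions by limma's test of the difference over 12 libraries (RGCs minus non-RGCs -1.33, adjusted p = 0.0116). It had 3457, 3556 and 3023 normalised reads in WT RGCs and 2477, 2585 and 2596 in mKO RGCs, and 139, 154 and 178 in WT non-RGCs against 292, 364 and 257 in mKO non-RGCs. All mKO libraries lay below WT in RGCs and above it in non-RGCs, as did those of the RGC marker Thy1, whose part in this was not tested. None of the 10 vessel genes differed between the fractions by this test.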

How the results depend on the processing

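No paired analysis was possible because the recovered libraries carry no replicate numbers. Over all genes, the 6027 calls in RGCs became 2595 with the GC trend removed, 1315 with both trends removed, 2615 at a p under 0.05 and 1.5-fold, 3776 to 8200 without single libraries, and 1799 without mKO library A and WT library B. The 1626 calls in non-RGCs became 264 with the GC trend removed, 292 with both removed, and 139 (without mKO library B) to 1621 without single libraries, 380 of them without WT library B. The 16 genes whose change differed between the fractions became 27 under CPM scaling and 7 (without mKO RGC library A) to 237 (without mKO non-RGC library A). Of the values of the 10 genes under all alternatives, 214 kept their direction and their side of the threshold, 13 lost a call, 7 gained one and 12 turned in direction. Those that turned were Kdr in RGCs with both trends removed (0.0021), Tek in RGCs (-0.97 to 0.46 without single libraries, 0.14 without mKO A and WT B), Rgs5 in RGCs (-1.17 to 0.25 without single libraries), and Cldn5 in non-RGCs (0.10 under CPM scaling, 0.37 with the GC trend removed, 0.40 with both removed, -0.319 to 0.0597 without single libraries). At a minimum mean of 50, 6 members were tested in non-RGCs and Tie1 was not among them. The causes were not tested. Depth limits Tie1, Tek, Cdh5, Pecam1 and Rgs5 in mKO non-RGCs, with reads in single digits in 1 or more libraries.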
